A study of Homo sapiens with 6 samples.

Results

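Of 47 listed genes of cholesterol and fatty acid synthesis, chosen by symbol and matched to Entrez identifiers, 46 were analysed among the 12703 genes of the count table, and ELOVL7 was not analysed here. RNA was taken from 3 PC3 lines that carry a GCNT1 overexpression lentivirus and from 3 PC3 lines that carry the Lenti-ORF negative control lentivirus, and all 6 are stable lines that went through lentiviral transduction. The study describes 3 lines per group, and the labels call the 3 libraries of each group biological replicates without saying whether the lines came from separate transductions, so the p values measure the spread between these libraries, which may be partly technical.

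Cells make cholesterol and fatty acids from acetyl-CoA in linked pathways, and most of the enzymes are under the control of the sterol regulatory element-binding proteins (SREBPs), membrane-bound transcription factors that are released to the nucleus when sterols in the endoplasmic reticulum are low. Liver X receptors switch on genes of sterol export when oxidised sterols build up. Prostate cancer cells are known for active lipid synthesis, and PC3 is a long-used human line grown from a prostate cancer that had spread to bone.

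Transcripts of the cholesterol and fatty acid genes were lower more often than higher in GCNT1 overexpressing cells. At an adjusted p value of 0.05, 24 of the 46 genes fell (52.2%, against 29.3% of all 12703 genes) and 8 rose (17.4%, against 28.3%), where 57.6% of all genes passed in either direction. With the fold change threshold of 0.58 on the log2 scale as well, which defines a called gene here, 10 were called lower (21.7%, against 11.1% of all genes) and 2 were called higher (4.35%, against 8.28%), which makes 12 called (26.1%, against 19.3%). The 10 called lower were STARD4, HMGCS1, ACAT2, ELOVL6, INSIG1, SREBF2, SQLE, ELOVL5, SCD and SC5D, and the 2 called higher were NPC2 and ABCG1. In each of these 12 the 3 libraries of one group lay apart from the 3 of the other. Over the 46 genes, the overexpressing libraries were all below the controls in 23 (50%, against 31.6% of all genes) and all above them in 7 (15.2%, against 30.9%). The median log2 fold change over the 46 genes was -0.22, and over all genes it was 0.00. An exact permutation of 3 libraries against 3 has 0.10 as its smallest two-sided p, so the adjusted p values come from the quasi-likelihood fit of edgeR over all genes (Benjamini-Hochberg). Positions are those of RefSeq on GRCh38.p14, and an error after ± is an SD over 3 libraries unless it is marked SE.

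**Figure D1:**
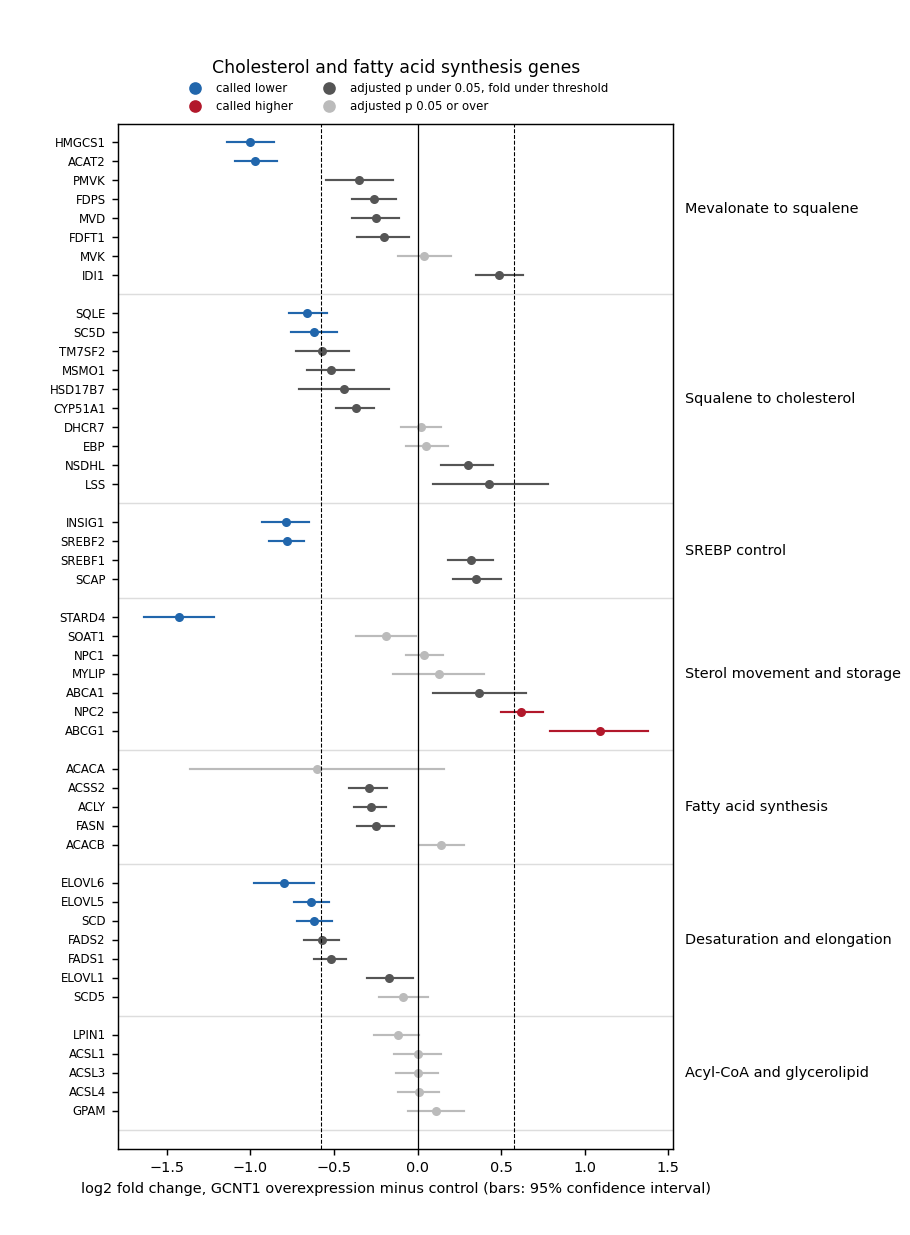
Log2 fold change (horizontal axis, GCNT1 overexpression minus control) of the 46 genes with bars for the 95% confidence interval, grouped by role, and dashed lines at the fold change threshold of 0.58. The 10 genes called lower lie at or beyond -0.62, the 2 called higher at 0.62 and 1.09, and the genes of the acyl-CoA and glycerolipid group lie around 0.

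Total counts were 12125672 to 12755888 per control library and 11392213 to 13825704 per overexpressing library. GCNT1 itself, whose product branches O-linked glycans, gave 9, 13 and 8 reads in controls against 13, 16 and 35 under overexpression (log2 fold change 0.98 ± 0.37 SE, adjusted p = 0.0362). Overexpression replicate 1 and control replicate 2 had the same 13 reads, so the groups touched in counts. Without overexpression replicate 3 the value was 0.49 (adjusted p = 0.269 by edgeR), and without control replicate 1 or 3 it was 0.91 or 0.88 (adjusted p = 0.092 and 0.0944), so the p threshold was not passed with any of these left out. The study checked its PC3 overexpression model by other means (real-time PCR, sandwich ELISA and immunocytochemistry), which are not part of these counts. Keratin transcripts KRT8 and KRT18 stood at 222 and 253 CPM (counts scaled to a common library total, here with TMM factors) in controls. Of 6 listed markers of prostate luminal epithelium 5 were analysed, and KRT19, CDH1 and TMPRSS2 were called lower. KRT8 and KRT18 were not called (202 and 222 CPM with overexpression, log2 fold changes -0.14 and -0.18), and KRT19 went from 369 to 230 CPM. The summed level of the 5 was 821.4 to 868.7 CPM in controls and 622 to 706.1 CPM with overexpression. Among listed markers of leukocytes, endothelium and fibroblasts, CD68, PECAM1 and COL1A1 were the ones analysed, with 83.35 to 94.37, 1.43 to 1.945 and 13.75 to 15.74 CPM in controls and 80.01 to 89.52, 3.931 to 5.098 and 8.226 to 8.86 CPM with overexpression. All 6 libraries come from PC3 lines, so these are levels in PC3 lines and not measures of leukocytes, endothelium or fibroblasts. The part of these markers in the lipid gene results was not tested. In bulk RNA a change in every cell and a change in some of the cells cannot be told apart.

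Promoter sequences are shown first for genes of different roles that moved, because SREBPs and their partner NF-Y are known to bind short elements next to the start sites of this pathway. They come from the RefSeq promoters of GRCh38.p14, which hold entries for 41 of the 46 genes (not ABCG1, ACAT2, FASN, FDFT1 or SQLE, which were not searched), and the 250 bases before each start site were searched on both strands. The motifs searched were the classical sterol regulatory element, whose letters are the capitals of the SREBF2 stretch, CACNCCAC, a shorter form that lies within it, CCAAT, the NF-Y box, and the liver X receptor element of 2 copies of AGGTCA with 4 bases between them. Capitals mark these letters or their reverse complement in the stretches below, each 5′ to 3′ on the strand of its gene, and each stretch lies outside annotated exons except the 30 bases of SREBF2.
SREBF2, chr22:41832961-41832990, plus strand: atgacgcgccATCACCCCACgcaccgcttc
INSIG1, chr7:155297650-155297732, plus strand: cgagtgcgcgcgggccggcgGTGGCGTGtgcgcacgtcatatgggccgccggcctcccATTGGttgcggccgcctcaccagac
HMGCS1, chr5:43313528-43313587, minus strand: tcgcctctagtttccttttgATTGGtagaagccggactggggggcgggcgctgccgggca
STARD4, chr5:111512641-111512716, minus strand: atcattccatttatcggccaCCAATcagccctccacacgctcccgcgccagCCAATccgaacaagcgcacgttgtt
SCD, chr10:100346984-100347133, plus strand: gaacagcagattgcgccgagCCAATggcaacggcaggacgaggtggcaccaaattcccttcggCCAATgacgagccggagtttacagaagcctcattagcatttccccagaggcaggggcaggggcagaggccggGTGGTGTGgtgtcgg
NPC2, chr14:74493609-74493676, minus strand: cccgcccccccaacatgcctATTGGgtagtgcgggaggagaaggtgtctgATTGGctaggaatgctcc

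The classical element was found in 1 of the 41 genes, SREBF2, 134 bases before the start site, and in 0.0439% of all 27305 genes with a promoter entry (0.0293% of the 10236 analysed genes among them). Its shorter form was found in 9 of the 41 (22%, against 5.89% of all genes with a promoter entry and 6.43% of the analysed genes with one): SREBF2, INSIG1, SCD and SC5D, which were called lower, IDI1 and ABCA1, which rose, and ACSL1, ACSL4 and ACACA, which did not pass the test. That was 4 of the 20 genes that fell and have an entry, 2 of the 7 that rose and 3 of the 14 that did not pass the test. CCAAT was found in 29 of the 41 (70.7%, against 37% of all genes with a promoter entry and 41.7% of the 10236 analysed genes with one). Of the 20 genes that fell and have an entry 15 held it, of the 7 that rose 4 did, and of the 14 that did not pass the test 10 did. The liver X receptor element was found in 0 of the 41 and in 5 of all 27305. These matches are descriptions of the letters in these windows and do not show binding.

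Among the enzymes from acetyl-CoA to squalene, 6 of 8 fell and 1 rose (against 29.3% and 28.3% of all genes), and both called genes stand at the entry of the pathway. HMGCS1 (Entrez 3157), the cytosolic HMG-CoA synthase, lies on chromosome 5 from 43287470 to 43313412. It gave 1057, 979 and 881 reads in controls against 433, 553 and 578 under overexpression. Its TMM-normalized level fell from 79.0 ± 4.75 to 39.5 ± 1.88 CPM, a change of -1.0 ± 0.07 (SE) on the log2 scale, with adjusted p = 3.88e-08. All 3 overexpressing libraries were below all 3 controls. The 50 analysed genes nearest to HMGCS1 stood at a median of -0.69, and relative to that median its own value was -0.31, which is under the fold change threshold.

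ACAT2 (Entrez 39), the cytosolic thiolase that joins 2 acetyl-CoA molecules at the first step, lies on chromosome 6 from 159762045 to 159779112. Its counts were 1105, 1050 and 1007 in controls and 529, 602 and 595 with overexpression. The level fell from 85.8 ± 1.81 to 43.9 ± 1.77 CPM, which is a change of -0.97 ± 0.06 (SE) on the log2 scale, with adjusted p = 1.45e-08. The groups did not overlap. TCP1, a chaperonin gene that overlaps ACAT2 on the opposite strand, also fell (log2 fold change -0.47, adjusted p = 1.12e-06), and whether the counting used strand is not given in the sources used here. The 50 genes nearest to ACAT2 had a median of -0.41, which leaves -0.56 for ACAT2.

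Later steps to squalene moved less. FDPS, which makes farnesyl diphosphate, had 149, 157 and 164 CPM in controls and 140, 123 and 129 CPM with overexpression (log2 fold change -0.26, adjusted p = 0.00216). PMVK and MVD, the phosphomevalonate kinase and the mevalonate diphosphate decarboxylase, fell by 0.35 and 0.25 on the log2 scale (adjusted p = 0.00546 and 0.00527), and FDFT1, the squalene synthase, fell by 0.20 (adjusted p = 0.0274). FDFT1 lost the p threshold without control replicate 3 (adjusted p = 0.114) or overexpression replicate 2 (0.107) or 3 (0.0734), in edgeR's fit. The PMVK libraries of the groups overlapped, since control replicate 3 and overexpression replicate 1 both had 36.4 CPM. MVK, the mevalonate kinase, had a log2 fold change of 0.04 with a 95% confidence interval from -0.12 to 0.20 (adjusted p = 0.649).

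IDI1, the isopentenyl diphosphate isomerase, was the 1 enzyme of its branch that rose, where 6 fell and MVK did not pass the test. It had 28.9, 29.6 and 29.8 CPM in controls and 40.3, 43.0 and 40.3 CPM with overexpression, a change of 0.49 ± 0.07 (SE) on the log2 scale, with adjusted p = 3.10e-05. Every overexpressing library was higher than every control. IDI1 lies near the end of the short arm of chromosome 10, from 1039152 to 1056704, where the 50 nearest analysed genes stood at a median of 0.76. Relative to that median IDI1 had a value of -0.28, so its direction turned.

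From squalene to cholesterol, 6 of 10 enzymes fell and 2 rose, against 29.3% and 28.3% of all genes. SQLE (Entrez 6713), the squalene epoxidase and a rate-limiting step of the later pathway, lies on chromosome 8 from 124998505 to 125022283. Its counts of 1713, 1720 and 1562 in controls compared with 991, 1138 and 1258 with overexpression. This was a fall from 135 ± 3.06 to 85.9 ± 3.17 CPM, which is a change of -0.66 ± 0.05 (SE) on the log2 scale, with adjusted p = 2.72e-07. The nearest 50 genes had a median of -0.07, and SQLE was past the fold change threshold relative to it, at -0.59. A test against the threshold itself (glmTreat in edgeR) did not call SQLE (adjusted p = 0.185), nor SC5D, SCD, ELOVL5 and NPC2 below.

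SC5D (Entrez 6309), the lathosterol desaturase, lies on chromosome 11 from 121292771 to 121313410. It had 1110, 1090 and 968 counts in controls and 602, 761 and 847 counts with overexpression, and its level fell from 85.9 ± 3.47 to 55.8 ± 4.02 CPM. This was a change of -0.62 ± 0.06 (SE) on the log2 scale (adjusted p = 3.21e-06). Overexpression replicate 1 was the lowest library, and without it the log2 fold change was -0.57, under the threshold. The 50 nearest genes had a median of -0.29, which leaves -0.33.

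The sterol enzymes that fell without being called were TM7SF2, MSMO1, HSD17B7 and CYP51A1. TM7SF2, a sterol reductase, was just under the threshold with a log2 fold change of -0.57 (adjusted p = 2.61e-05), and MSMO1, the methylsterol monooxygenase, had -0.52 (adjusted p = 1.78e-05). TM7SF2 came past it when control replicate 1 (-0.59), control replicate 2 (-0.61) or overexpression replicate 1 (-0.63) was left out. CYP51A1, the lanosterol demethylase, had 107 ± 4.89 CPM in controls and 82.9 ± 0.772 CPM with overexpression (log2 fold change -0.37, adjusted p = 6.25e-05). For HSD17B7, a sterol ketoreductase, the log2 fold change was -0.44 (adjusted p = 0.00799), and its canonical transcript also matched chromosome 10 at 98.62% identity over 99.8% of its length, so that its counts are uncertain.

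NSDHL, which helps to remove methyl groups from sterols, rose from 41.4 ± 2.05 to 50.9 ± 3.84 CPM (log2 fold change 0.30, adjusted p = 0.00303). LSS, the lanosterol synthase, had only 62, 46 and 49 counts in controls and 56, 85 and 86 with overexpression (log2 fold change 0.43, adjusted p = 0.0338), and the groups overlapped. Without control replicate 2 or 3, or overexpression replicate 2 or 3, LSS did not pass the test (adjusted p = 0.135, 0.0758, 0.102 and 0.109 in edgeR's fit). The LSS transcript matched an alternative sequence of hg38 for chromosome 21 at 100% identity over 88.2% of its length, and whether reads matching both places were counted was not tested. EBP and DHCR7, the sterol isomerase and the last reductase of the pathway, did not pass the test. Their log2 fold changes were 0.05 and 0.02, with 95% confidence intervals from -0.07 to 0.18 and from -0.10 to 0.14.

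**Figure D2:**
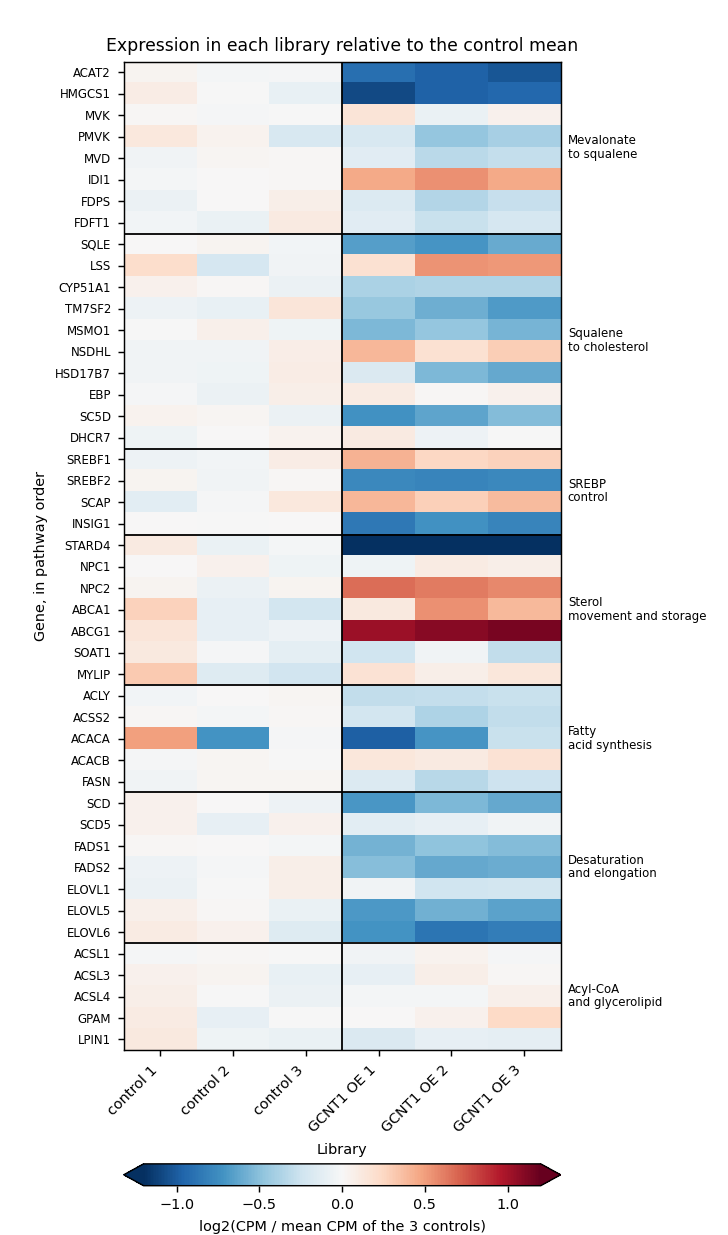
Expression of the 46 genes (rows, in pathway order) in each of the 6 libraries (columns), as log2 of CPM over the mean CPM of the 3 controls. The overexpressing libraries are blue (lower) in ACAT2, HMGCS1, SQLE, SREBF2, INSIG1, STARD4 and the desaturases and elongases, red (higher) in IDI1, NPC2 and ABCG1, and STARD4 lies beyond the colour scale.

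All 4 genes of SREBP control passed the test, as 57.6% of all genes did, and 2 fell while 2 rose. SREBF2 (Entrez 6721), which encodes the SREBP that mainly drives cholesterol synthesis, lies on chromosome 22 from 41833105 to 41907305. It gave 2266, 2127 and 2100 reads in controls against 1189, 1400 and 1450 under overexpression. The level fell from 176 ± 4.79 to 102 ± 0.483 CPM, a change of -0.78 ± 0.05 (SE) on the log2 scale, with adjusted p = 2.25e-08. Its overexpressing libraries were close to one another and far below the controls. Relative to its 50 nearest genes, whose median was -0.25, the value was -0.53.

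INSIG1 (Entrez 3638), which holds the SREBPs in the endoplasmic reticulum and is itself a known SREBP target, lies on chromosome 7 from 155297878 to 155310235. Its counts were 591, 579 and 555 in controls and 299, 389 and 381 with overexpression, and its level fell from 46.8 ± 0.261 to 27.1 ± 1.24 CPM. This was a change of -0.79 ± 0.06 (SE) on the log2 scale (adjusted p = 3.73e-07). Its neighbours went the other way, with a median of 0.24, and relative to them INSIG1 had -1.03.

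SREBF1, whose protein mainly drives fatty acid synthesis, and SCAP, the escort that carries the SREBPs to the Golgi, rose. SREBF1 went from 89.1 ± 4.99 to 111 ± 7.13 CPM (log2 fold change 0.32 ± 0.06 SE, adjusted p = 0.000768). SCAP went from 102 ± 9.27 to 131 ± 5.26 CPM (log2 fold change 0.35 ± 0.07 SE, adjusted p = 0.000477). Neither was past the fold change threshold, but in both the groups did not overlap.

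The genes of sterol movement and storage held both the largest fall and the largest rise of the 46, and of these 7 genes 1 fell and 3 rose (against 29.3% and 28.3% of all genes). STARD4 (Entrez 134429), a carrier that moves cholesterol between membranes, lies on chromosome 5 from 111496033 to 111512535. It gave 492, 428 and 422 reads in controls against 134, 210 and 190 under overexpression. The level fell by 63.1%, from 36.4 ± 2.44 to 13.4 ± 1.85 CPM, which is a change of -1.43 ± 0.10 (SE) on the log2 scale, with adjusted p = 5.69e-08. Unlike HMGCS1, which lies on the same chromosome, STARD4 had neighbours with a median near 0 (0.01).

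ABCG1 (Entrez 9619), a transporter that exports sterols and a known liver X receptor target, lies on chromosome 21 from 42199689 to 42297244. It gave 48, 40 and 39 reads in controls against 81, 101 and 107 under overexpression. The level rose from 3.44 ± 0.325 to 7.31 ± 0.294 CPM, a change of 1.09 ± 0.14 (SE) on the log2 scale, with adjusted p = 1.97e-05, and relative to its neighbours it was 0.83. NPC2 (Entrez 10577), which hands cholesterol out of lysosomes, lies on chromosome 14 from 74479935 to 74493512. Its counts were 746, 686 and 697 in controls and 1066, 1222 and 1215 with overexpression, and its level rose from 57.8 ± 2.33 to 89.1 ± 3.00 CPM. This was a change of 0.62 ± 0.06 (SE) on the log2 scale (adjusted p = 1.05e-06), against a median of 0.00 for its 50 nearest genes. In both genes every overexpressing library was above every control.

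ABCA1, the other sterol exporter and liver X receptor target of the list, had 21.1, 16.2 and 14.9 CPM in controls and 18.9, 25.4 and 22.8 CPM with overexpression. The log2 difference was 0.37 ± 0.13 (SE; adjusted p = 0.0276), but the groups overlapped, and its 50 nearest genes had a median of 0.40. ABCA1 did not pass the test without control replicate 2 (0.32, adjusted p = 0.109), control replicate 3 (0.27, 0.105), overexpression replicate 2 (0.27, 0.111) or overexpression replicate 3 (0.36, 0.0758), by edgeR, and without control replicate 1 it was 0.54. NPC1, the membrane partner of NPC2, had a log2 fold change of 0.04 (95% confidence interval -0.07 to 0.15, adjusted p = 0.502). MYLIP, a ubiquitin ligase that liver X receptors induce, had 0.13 (95% confidence interval -0.15 to 0.40, adjusted p = 0.422), and SOAT1, which esterifies cholesterol for storage, had -0.19 (95% confidence interval -0.37 to -0.01, adjusted p = 0.0696). Single libraries decided whether MYLIP and SOAT1 passed the p threshold, and neither was called. MYLIP passed it without control replicate 1 (0.33, adjusted p = 0.0185) and ranged from 0.03 to 0.33 as libraries were left out. SOAT1 passed it without control replicate 3 (-0.24, adjusted p = 0.0334) or overexpression replicate 2 (-0.26, 0.0212), while without control replicate 1 SOAT1 was -0.12 (0.294).

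**Figure D3:**
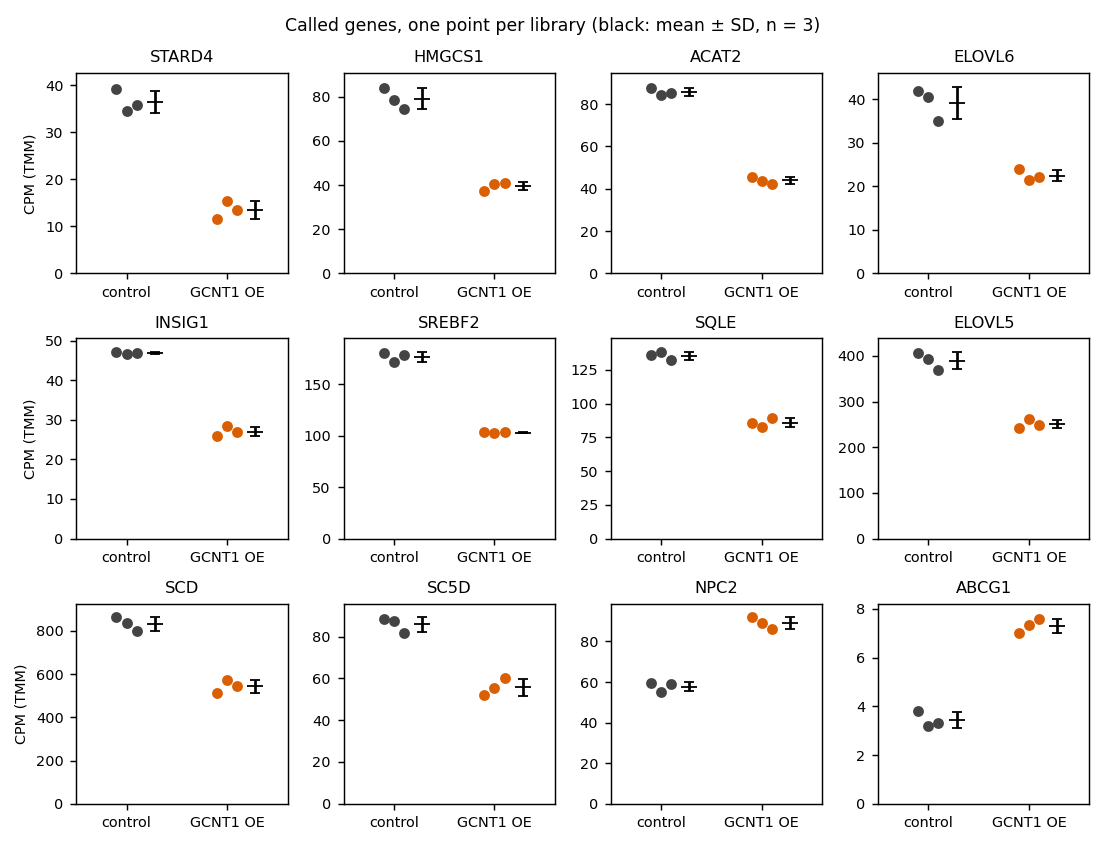
TMM-normalized CPM of the 12 called genes in each library (points, 3 control and 3 GCNT1 overexpression), with the mean ± SD of each group in black and vertical axes from 0. The groups do not overlap in any panel, STARD4 falls from 36.4 to 13.4 CPM and ABCG1 rises from 3.44 to 7.31 CPM.

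Of the 7 desaturases and elongases analysed, 6 fell, 0 rose and 3 were called (against 29.3%, 28.3% and 19.3% of all genes), with a median log2 fold change of -0.57. Some of them are among the highest transcripts of the 46 genes per length, although SCD5 and ELOVL6 ranked 30 and 39. Per kilobase of canonical transcript, controls had 251 ± 11.2 CPM of FADS2, 159 ± 6.15 of SCD and 141 ± 6.91 of ELOVL5, the highest of the 46 genes. Their summed level was 2643, 2621 and 2602 CPM in the control libraries and 1760, 1808 and 1765 CPM in the overexpressing libraries. The sum over all 46 genes went from 5942 ± 27.7 to 4711 ± 4.90 CPM, and the desaturases and elongases made up 68.6% of that difference.

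SCD (Entrez 6319), the stearoyl-CoA desaturase that makes monounsaturated fatty acids, lies on chromosome 10 from 100347233 to 100364826. It gave 10853, 10408 and 9437 reads in controls against 5921, 7888 and 7664 under overexpression. Its level fell from 832 ± 32.2 to 543 ± 31.3 CPM, which is a change of -0.62 ± 0.05 (SE) on the log2 scale, with adjusted p = 3.57e-07. Without overexpression replicate 1, the lowest library, it was -0.57, under the fold change threshold. SCD5, the other stearoyl-CoA desaturase of the list, had 44 ± 2.59 CPM in controls and 41.4 ± 1.33 CPM with overexpression, and a log2 fold change of -0.09 (95% confidence interval -0.23 to 0.06, adjusted p = 0.277), which ranged from -0.14 to -0.05 as libraries were left out.

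ELOVL5 (Entrez 60481), which lengthens polyunsaturated fatty acids, lies on chromosome 6 from 53267404 to 53348950. Its counts were 5120, 4893 and 4363 in controls and 2805, 3585 and 3516 with overexpression, and its level fell from 390 ± 19.1 to 251 ± 9.41 CPM. This was a change of -0.64 ± 0.05 (SE) on the log2 scale (adjusted p = 2.59e-07), and -0.50 relative to its neighbours. ELOVL6 (Entrez 79071), which lengthens saturated fatty acids made by the fatty acid synthase, lies on chromosome 4 from 110045846 to 110199202. It gave 527, 504 and 415 reads in controls against 277, 294 and 312 under overexpression. The level fell from 39.2 ± 3.58 to 22.5 ± 1.31 CPM, a change of -0.80 ± 0.08 (SE) on the log2 scale, with adjusted p = 3.19e-06. ELOVL1, which acts on longer chains, differed less (log2 fold change -0.17, adjusted p = 0.0394), with groups that overlapped. It lost the p threshold without control replicate 2 or 3, or overexpression replicate 2 or 3 (adjusted p = 0.0961, 0.129, 0.154 and 0.149 in edgeR's fit).

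FADS1 and FADS2, neighbouring genes on chromosome 11 for the desaturases of polyunsaturated fatty acids, stood just under the fold change threshold. FADS2 had 747, 769 and 815 CPM in controls and 544, 509 and 513 CPM with overexpression (log2 fold change -0.57 ± 0.05 SE, adjusted p = 3.78e-07). FADS1 had 434, 431 and 423 CPM in controls and 290, 308 and 300 CPM with overexpression (log2 fold change -0.52 ± 0.04 SE, adjusted p = 4.06e-07). In both all overexpressing libraries were below all controls. FADS2 came past the threshold without control replicate 1 (-0.59), control replicate 2 (-0.58) or overexpression replicate 1 (-0.60). Their spans overlap each other on opposite strands, and FEN1, which overlaps FADS2 on the same strand, rose (log2 fold change 0.30, adjusted p = 0.000287).

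The enzymes that supply and join acetyl-CoA units moved less, and of these 5 genes 3 fell, 0 rose and 0 were called (against 29.3%, 28.3% and 19.3% of all genes). ACLY, the ATP citrate lyase, had 252, 257 and 262 CPM in controls and 209, 211 and 214 CPM with overexpression (log2 fold change -0.28 ± 0.04 SE, adjusted p = 0.000114). ACSS2, the acetyl-CoA synthetase, and FASN, the fatty acid synthase, fell by 0.29 and 0.25 on the log2 scale (adjusted p = 0.000444 and 0.00101). The neighbours of these last genes were lower too, with medians of -0.27 and -0.36, and relative to them ACSS2 had -0.03 and FASN 0.11.

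ACACB, the acetyl-CoA carboxylase of mitochondria, had a log2 fold change of 0.14 (95% confidence interval 0.01 to 0.28, adjusted p = 0.0706). UNG, which overlaps ACACB on the same strand, rose (log2 fold change 0.71, adjusted p = 1.93e-06). ACACA, the cytosolic carboxylase and the committed step of fatty acid synthesis, gave only 21, 9 and 14 reads in controls against 7, 10 and 14 under overexpression. Its transcript matched an alternative sequence of hg38 for chromosome 17 at 99.97% identity over 100% of its length, and whether reads matching both places were counted was not tested. Its log2 fold change of -0.60 had a 95% confidence interval from -1.36 to 0.16 (adjusted p = 0.164), and no difference was detectable at this depth. It ranged from -0.86 without control replicate 2 to -0.26 without control replicate 1.

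Of the 5 genes of acyl-CoA formation and glycerolipid assembly 0 passed the test, against 57.6% of all genes. ACSL1, ACSL3 and ACSL4, which activate long-chain fatty acids, had 32.3 ± 0.253, 189 ± 9.63 and 102 ± 5.10 CPM in controls and 32.2 ± 0.893, 189 ± 11.5 and 102 ± 3.56 CPM with overexpression. Their 95% confidence intervals of the log2 fold change ran from -0.14 to 0.14, from -0.13 to 0.12 and from -0.12 to 0.13. GPAM, which starts glycerolipid synthesis, had a log2 fold change of 0.11 (95% confidence interval -0.06 to 0.28, adjusted p = 0.265). As libraries were left out GPAM ranged from 0.03 to 0.17 and LPIN1 from -0.16 to -0.05. LPIN1, a phosphatidate phosphatase, had -0.12 (95% confidence interval -0.26 to 0.01, adjusted p = 0.112) in a region whose 50 nearest genes had a median of -0.50.

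Genes that lie near the lipid genes differed between the groups as well in some places, and the part of this in the values above was not tested. The median log2 fold change of the 50 nearest genes ran from -0.69 around HMGCS1 to 0.76 around IDI1, and it lay below -0.2 for 7 of the 46 genes, above 0.2 for 6 and between for 33. Relative to it, 7 of the 12 called genes were past the fold change threshold, namely SQLE, INSIG1, STARD4, NPC2, ABCG1, SCD and ELOVL6, while HMGCS1, ACAT2, SREBF2, SC5D and ELOVL5 did not. Another 5 genes, MVD, TM7SF2, MSMO1, FADS1 and FADS2, came past it, which makes 12 of the 46. Of all genes 15.4% were past it and had an adjusted p value under 0.05 in the main fit. The relative values themselves were not tested, so every adjusted p here is that of the log2 fold change before the local median was taken off. The median over the 46 genes was -0.21 on this relative scale.

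**Figure D4:**
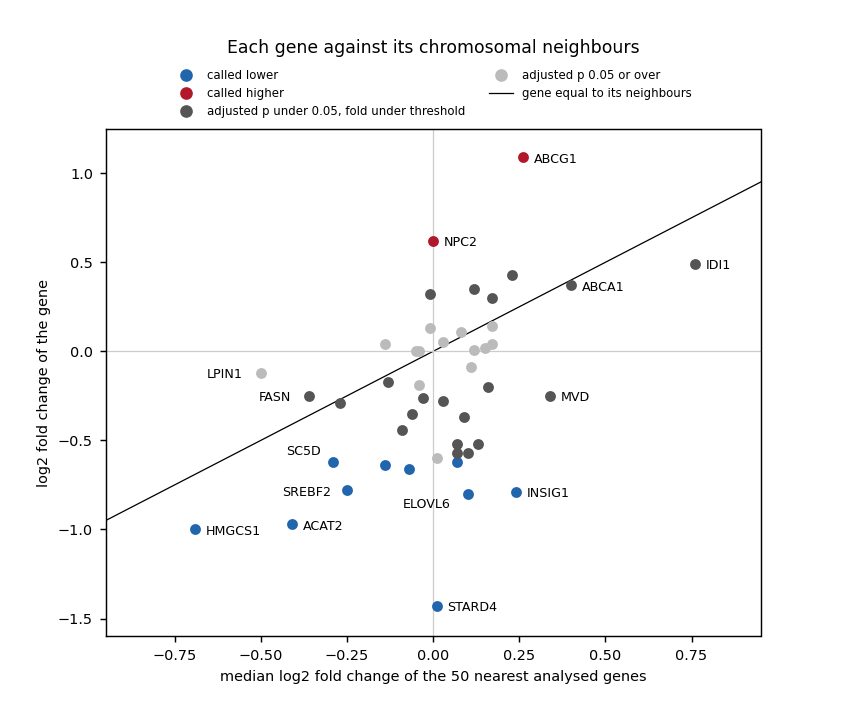
Log2 fold change of each of the 46 genes (vertical axis) against the median log2 fold change of its 50 nearest analysed genes (horizontal axis), with a line where the values are equal. HMGCS1 at -1.0 and IDI1 at 0.49 lie in regions with medians of -0.69 and 0.76, while STARD4 at -1.43 lies in a region with a median of 0.01.

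Further genes of the pathways, taken from a list made from general knowledge, moved in both directions. Of 21 other sterol genes analysed, 2 fell and 8 rose at an adjusted p value of 0.05, and 0 were called lower (9.52%, 38.1% and 0%, against 29.3%, 28.3% and 11.1% of all genes). INSIG2, the companion of INSIG1, and LBR, a sterol reductase of the nuclear envelope, fell by 0.46 and 0.21 on the log2 scale (adjusted p = 8.83e-05 and 0.019). The 3 called higher (14.3%, against 8.28% of all genes) were GRAMD1B, which carries plasma membrane cholesterol inward (166 ± 3.90 to 307 ± 17.7 CPM, log2 fold change 0.88, adjusted p = 1.36e-08), SCARB1, the receptor for high-density lipoprotein (log2 fold change 0.66, adjusted p = 1.06e-05), and NR1H3, which encodes a liver X receptor (14.6 ± 1.03 to 23.3 ± 2.92 CPM, log2 fold change 0.67, adjusted p = 0.000111). MBTPS1, a protease that cleaves the SREBPs, rose by less (log2 fold change 0.31, adjusted p = 5.99e-05) among genes with a median of 0.29, which leaves 0.02.

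Of 26 other fatty acid and glycerolipid genes, 12 fell and 6 rose at an adjusted p value of 0.05, and 11 were called (46.2%, 23.1% and 42.3%, against 29.3%, 28.3% and 19.3% of all genes). ELOVL2, ELOVL4 and ELOVL3, further elongases, were called lower, with ELOVL2 at 171, 181 and 168 counts in controls and 36, 37 and 41 with overexpression (log2 fold change -2.28, adjusted p = 5.28e-09). MLXIPL, the carbohydrate response factor, was called lower from 14, 15 and 17 counts to 1, 7 and 3, near the floor of 3 counts. ACSS1, GPAT3 and DGAT1 were also called lower (log2 fold changes -1.03, -0.69 and -0.59). Called higher were MID1IP1, an activator of acetyl-CoA carboxylase, from 10.4 ± 0.275 to 26.2 ± 0.342 CPM (log2 fold change 1.33, adjusted p = 1.93e-08), HACD1 and HACD3, dehydratases of the elongation cycle (1.12 and 0.67), and AGPAT2 (0.61). Relative to their 50 nearest genes SCARB1, HACD3, AGPAT2 and DGAT1 had 0.48, 0.34, -0.01 and -0.43, under the fold change threshold. SLC25A1, the citrate carrier of mitochondria, and ME1, the malic enzyme, fell by 0.47 and 0.29 on the log2 scale (adjusted p = 6.19e-05 and 0.000118).

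**Figure D5:**
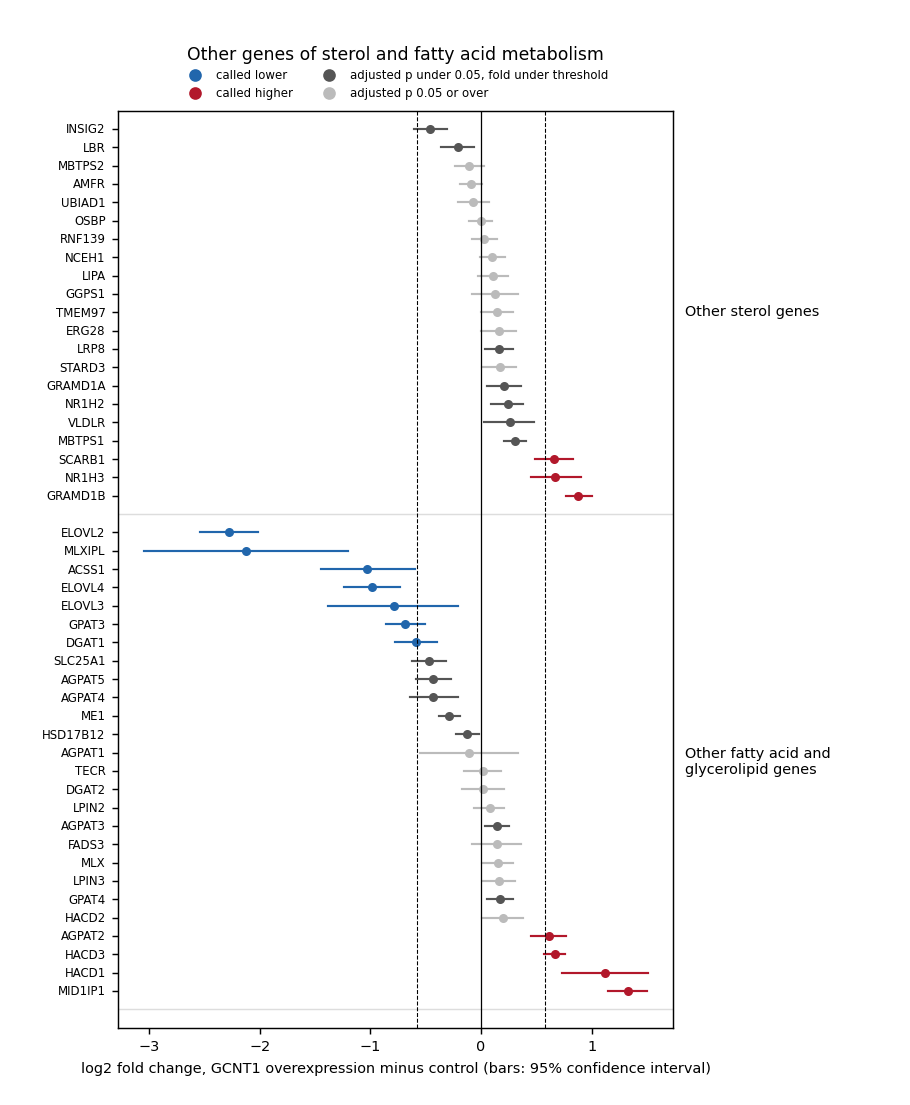
Log2 fold change (horizontal axis, GCNT1 overexpression minus control, with 95% confidence intervals) of the 47 other genes of sterol and fatty acid metabolism, with dashed lines at 0.58 in either direction. ELOVL2 at -2.28 is the lowest and MID1IP1 at 1.33 the highest, and 7 genes were called higher and 7 lower (14.9% each, against 8.28% and 11.1% of all genes).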

How the data were processed

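The authors prepared stranded mRNA libraries, trimmed the single reads (Cutadapt), used HISAT2 for mapping on hg38 and featureCounts for the gene totals, and ran limma-voom. The deposited table holds raw read counts per Entrez gene, with 1 column per library. The annotation, the low-count filter and the strand setting of the counting are not given in the sources used here. Symbols and positions were taken from RefSeq (GRCh38.p14), transcripts and overlaps from GENCODE 44, on the primary chromosomes that hg38 shares.

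The main test was edgeR 4.0.16 under R 4.3.3, with TMM factors after filterByExpr, a quasi-likelihood fit of both groups and Benjamini-Hochberg adjustment for 12703 genes. Called genes had an adjusted p value under 0.05 and an absolute log2 fold change of at least 0.58. Levels are TMM-normalized CPM. The floor of 3 counts was 0.217 to 0.263 CPM and covers counting error only. Libraries of a group differed by more than sampling noise (chi-square per degree of freedom 1.65 to 5.65), so each was counted as 1 sample. Local medians are over the 50 nearest analysed genes by order (25 per side away from chromosome ends). Canonical transcripts were matched to hg38, with its 261 alternative sequences, by minimap2, and matches of at least 97% identity over 50% of the length were kept. Alternatives used limma 3.58.1 and DESeq2 1.42.0.

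The rule for named genes took every called gene, the uncalled gene of smallest p in each role, genes past the p threshold against most of their role and, among other pathway genes, those called and the next 4 by p. The values of the remaining genes were picked for printing after they were seen. The genes, lists and tests were chosen with earlier results of these data known. Some genes of these pathways and lists are not reported here and entered no list count or sum.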

Additional observations from a re-analysis of the deposited data

How the results depend on the processing

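The 46 genes were refitted under 16 alternatives: limma-voom, DESeq2, RLE factors, library size alone, the replicate block, no filter, filters of 0.5 CPM (3 libraries) and 10 counts (all libraries), glmTreat, each library left out, and the value relative to the 50 nearest genes. Of 735 single-gene values, 687 kept their direction and their call or lack of one, 15 lost and 11 gained the call, and 22 changed sign. At the p threshold alone, 27 of the 735 values changed side apart from those of glmTreat, in FDFT1, LSS, ELOVL1, ACACB, MYLIP, ABCA1 and SOAT1. Genes that fell numbered 22 to 25 and genes that rose 6 to 9, where 29.3% and 28.3% of all genes did in the main fit. The shares of all genes at the p threshold alone were not taken for the alternatives. Leaving out the filter, or filtering at 0.5 CPM, kept the same 12703 genes, so those values could not change. The values relative to the 50 nearest genes kept the adjusted p of the main fit, so they could not change side at the p threshold. The filter at 10 counts left out ACACA. The replicate numbers did not pair the libraries (correlations of deviations -0.273, -0.0024 and -0.109). With the replicate block 10 genes were called lower and 2 higher, with no call changed, where 19.1% of all genes were called. At the p threshold 22 fell and 7 rose with the block (FDFT1, ELOVL1 and LSS no longer passed). Library size alone moved the median of all genes by 0.06, and ELOVL5, SC5D and SCD then had -0.58, -0.56 and -0.56, under the threshold before rounding.

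A test against the fold change threshold (glmTreat), which asks more by construction, called 6 genes lower and 1 higher, and 3 lower and 3 higher among the other pathway genes, where 11% of all genes were called. SQLE, NPC2, ELOVL5, SCD and SC5D lost the call (adjusted p = 0.185, 0.546, 0.342, 0.583 and 0.657). Relative to the 50 nearest genes, with the adjusted p of the main fit, 4 other pathway genes were called higher and 7 lower, 11 of 47, where 15.4% of all genes were called. On that scale the sign changed for ABCA1 (-0.03), ACACB (-0.03), ACSL1 (0.03), ACSL3 (0.05), ACSL4 (-0.12), DHCR7 (-0.13), FASN (0.11), IDI1 (-0.28), LPIN1 (0.37) and MVK (-0.13). With library size alone it changed for ACSL1 (0.05) and ACSL3 (0.05). With each library left out, values crossed 0 for ACSL1 (-0.02 to 0.01), ACSL3 (-0.04 to 0.04), ACSL4 (-0.03 to 0.05), DHCR7 (-0.03 to 0.06) and MVK (-0.01 to 0.11), none of which passed the test. The cause of these changes was not tested. Leaving out a library gave 10 to 12 genes called lower and 2 called higher, where 19 to 19.8% of all genes were called. The median over the 46 genes was then -0.25 to -0.20. For the other pathway genes, leaving out a library gave 6 to 7 called lower and 5 to 7 called higher.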
